A study of Mus musculus with 6 samples.

Results

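The miR-30 family was examined on Agilent mouse miRNA arrays of LLC1 cells. All mouse miRNAs named miR-30a to miR-30e on the arrays were taken, from both arms of the hairpin, which gave 10 members of 566 mouse miRNAs. These were the 5p arms mmu-miR-30a-5p, mmu-miR-30b-5p, mmu-miR-30c-5p, mmu-miR-30d-5p and mmu-miR-30e-5p and the 3p arms mmu-miR-30a-3p, mmu-miR-30b-3p, mmu-miR-30c-1-3p, mmu-miR-30c-2-3p and mmu-miR-30e-3p, named without the species prefix from here on. LLC1 is a mouse Lewis lung carcinoma line that arose in a C57BL mouse. Cells of this line, for which the labels name no genetic change or drug in either group, were grown for 48 h as a 2D monolayer on plastic or in 3D within an extracellular matrix rich in laminin (lr-ECM, 0.5 mg/ml) over agarose. Each group held 3 replicates, and each replicate had 1 array with 100 ng of Cy3 labelled total RNA. Both groups come from 1 cell line.

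MiRNAs are short RNAs that guide Argonaute proteins to messenger RNAs, mostly by pairing of the seed near their 5′ end, and lower the output of those messengers. The 5p arms of the miR-30 family share a seed and are therefore expected to bind overlapping targets, among them Snai1, a transcription factor of the epithelial-mesenchymal transition. The family is known for restraining that transition and for its abundance in differentiated epithelia, lung included.

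The mature sequences are shown because the results turn on how alike the members are and on the arm they come from. RefSeq entries (mouse, GRCm38.p6) were found for 7 of the 10 members. They are written 5′ to 3′ with the seed, bases 2 to 8, in capitals.
miR-30a-5p: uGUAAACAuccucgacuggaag
miR-30e-5p: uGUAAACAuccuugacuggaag
miR-30c-5p: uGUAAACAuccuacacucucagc
miR-30a-3p: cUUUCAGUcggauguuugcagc
miR-30e-3p: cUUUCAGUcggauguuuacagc
miR-30c-1-3p: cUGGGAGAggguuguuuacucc
miR-30c-2-3p: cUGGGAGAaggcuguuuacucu
The 3 matched 5p arms carried the seed GUAAACA and shared their first 12 bases. MiR-30a-5p and miR-30e-5p differed by C13U, with positions counted from 1 at the 5′ end and the base of miR-30a-5p first. Their 3p arms shared the seed UUUCAGU and differed by G18A, with the base of miR-30a-3p first. The 3p arms of the miR-30c hairpins had another seed, UGGGAGA, and differed by G9A, U12C and C22U, with the base of miR-30c-1-3p first. Cross-hybridisation between members this alike was not tested.

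Of 1679 mature mouse names in the RefSeq table, 4 (0.238%) had the seed GUAAACA, and the only one outside the family was miR-384-5p (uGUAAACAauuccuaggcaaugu, chromosome X). This seed mate was on the arrays and was well above background on none of the 6. The RefSeq table had no entry for miR-30b-5p or miR-30d-5p. The count, and miR-384-5p as the only seed mate, therefore hold for the names in it alone.

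The members come from paired genes. Mir30a, the source of miR-30a-5p (chr1:23272274-23272295, plus strand), lay 19361 bases from Mir30c-2 on chromosome 1. Mir30e, the source of miR-30e-5p (chr4:120772660-120772681, minus strand), lay 2983 bases from Mir30c-1 on chromosome 4, and both fell within the span of the protein-coding gene Nfyc. The mature miR-30c-5p is the same from Mir30c-1 and Mir30c-2, so its signal cannot be assigned to either gene. Mir30b and Mir30d are nearest miRNA neighbours on chromosome 15.

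The arrays were not equally bright. Before scaling, miRNA probes had a mean signal of 5.03 linear units on 2D replicate 2 and 21.4 to 49.9 on the other 5 arrays. On 2D replicate 2 the scaling factor was 4.43, and its correlations with the other 2D arrays over 121 miRNAs (0.872 to 0.881) were below that between 2D replicates 1 and 3 (0.992). The 2D arrays shared 1 slide, the lr-ECM 3D arrays shared another slide scanned on another day, and so slide, scan day and culture condition cannot be told apart in these comparisons. As the labels state a tumor line, marker miRNAs were checked. The mesenchymal markers miR-199a-3p, miR-199a-5p and miR-214-3p were well above background on all 6 arrays. On no array was this so for the 6 epithelial markers, the 2 neuronal ones or the 4 blood cell markers found by name. MiR-142-3p and miR-142-5p, also on the blood cell list, are named miR-142a-3p and miR-142a-5p on the arrays. Both were detected on every array of at least 1 group, so blood cell markers were not all absent. Their log2 changes were -0.45 and -0.097 (limma adjusted p of 0.329 and 0.655). In bulk RNA, a change in the share of cells with a miRNA and a change in its amount per cell cannot be told apart.

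To see which members of the family LLC1 cells express, detection was compared first. Values per array are given in the order of replicates 1, 2 and 3 throughout. A member counted as well above background, by the scanner software's flag, where any of its probes did. By this measure 1, 0 and 5 members were detected on the 2D arrays. On the lr-ECM 3D arrays the numbers were 6, 3 and 4. The groups overlapped, since 2D replicate 3 had more detected members than lr-ECM 3D replicates 2 and 3. Mean numbers were 2.00 ± 2.65 (SD, n = 3) and 4.33 ± 1.53 (SD, n = 3), and the difference of 2.33 did not pass the exact two-sided permutation test (p = 0.3, where 0.1 is the smallest p that 3 against 3 allows). Over all mouse miRNAs the number detected ran from 48 on 2D replicate 2 to 154 on lr-ECM 3D replicate 1.

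Detection differed between the arms, with miR-30b-3p as the exception among the 3p arms. Each of the 5p arms was well above background on at least 1 array. Among the 3p arms, miR-30b-3p was detected in this way on each of the 3 lr-ECM 3D arrays and on none of the 2D arrays, a pattern shown by 30 of the 566 mouse miRNAs (5.3%). The 3p arms of miR-30a, miR-30c-1, miR-30c-2 and miR-30e were well above background on no array. Their signals before scaling lay between -3.64 and 13.4 linear units, below the lowest signal well above background on each array (22.1 to 29.7). For these 4 members no fold is given.

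**Figure D1:**
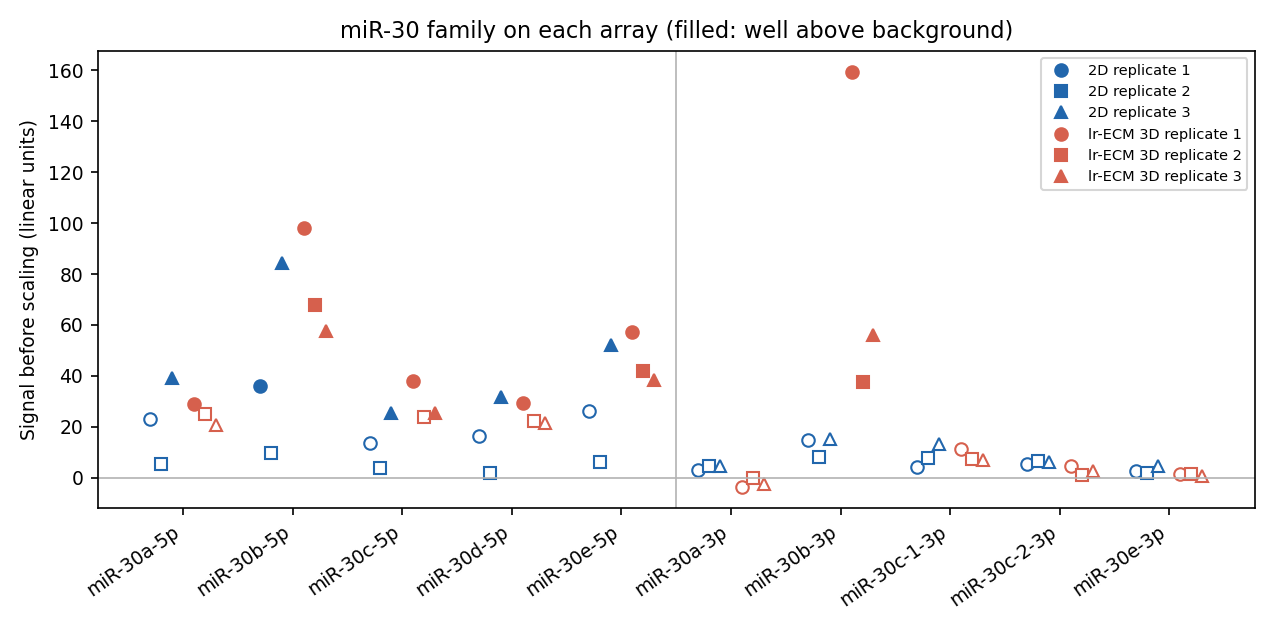
Signal before scaling (linear units, vertical axis) of the representing probe of each miR-30 member (horizontal axis; 5p arms left of the line, 3p arms right). Blue points are 2D arrays and red points lr-ECM 3D arrays, with the shape giving the replicate and filled points well above background; the 4 undetected 3p arms stay at or below 13.4, while miR-30b-3p reaches 160.

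The arms of the miR-30b hairpin are described next. MiR-30b-5p, the arm with the family seed, was measured at 35.8, 9.70 and 84.3 linear units before scaling on the 2D arrays, and at 98.0, 67.9 and 57.7 on the lr-ECM 3D arrays. On the scaled log2 scale these were 5.22, 5.43 and 5.54 in 2D and 5.45, 5.29 and 5.09 in lr-ECM 3D. It was well above background on every array but 2D replicate 2. The low raw value of 2D replicate 2 went with that array's brightness, and after scaling the groups overlapped. The scaled means were 5.39 ± 0.16 (SD, n = 3) in 2D against 5.28 ± 0.18 (SD, n = 3) in lr-ECM 3D. The log2 change was -0.12 (SE 0.16, 95% interval -0.51 to 0.27, limma adjusted p = 0.618), with a sign that turned under other scalings (0.20 with the 75th percentile over probes detected on all arrays). A change of more than 2-fold in either direction lay outside the interval under the scaling and probe used. That interval takes in 2D replicate 2, where the probe was not detected. The log2 change was 1.48 with the total gene signal (limma adjusted p = 0.473) and 1.24 without scaling (limma adjusted p = 0.263). A change above 2-fold is therefore not excluded.

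MiR-30b-3p, the opposite arm of that hairpin, was measured at 14.9, 8.25 and 15.3 linear units before scaling on the 2D arrays. On the lr-ECM 3D arrays it was measured at 160, 37.6 and 56.1. Before scaling all lr-ECM 3D arrays were above all 2D arrays, and lr-ECM 3D replicate 1 stood far above the other two. On the scaled log2 scale the values were 3.96, 5.19 and 3.08 in 2D and 6.15, 4.43 and 5.05 in lr-ECM 3D. Here the groups overlapped, because 2D replicate 2, multiplied by 4.43, rose above lr-ECM 3D replicates 2 and 3 although none of its spots of this probe was well above background.

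The scaled means of miR-30b-3p were 4.08 ± 1.06 (SD, n = 3) in 2D against 5.21 ± 0.87 (SD, n = 3) in lr-ECM 3D. Its log2 change of 1.14 (SE 0.68, 95% interval -0.56 to 2.84) did not pass the test (limma adjusted p = 0.325). This member entered the test only through the group where it is high, so its p-values under every setting carry that selection and are not used as support. The methods' scaling to the control mean was read here as 1 linear factor per array, and the call depends on that reading. The change was past the threshold with the deposited values, which have equal log2 means (2.01, limma adjusted p = 0.0237), without scaling (2.49, limma adjusted p = 0.0198) and with the total gene signal (5.11, limma adjusted p = 0.00122). It was also past it without 2D replicate 2 (1.69, limma adjusted p = 0.0256), in a fit where 26.4% of the tested miRNAs were called and 22.3% were called higher. With lr-ECM 3D replicate 1 left out it was 0.67 (limma adjusted p = 0.648), and without 2D replicate 3 it was 0.64 (limma adjusted p = 0.529). The level in 2D has only a bound, which fell under 1 over all 2D arrays. The log2 changes of miR-30b-3p rest on 2D signals that were not well above background and are not read as a fold. Over 2D replicates 1 and 3 the bound was at least 1.78-fold higher in lr-ECM 3D.

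The array has 4 probes for miR-30b-3p and all gave higher raw signals on each lr-ECM 3D array than on any 2D array. For the probe A_54_P3273, for example, the signal was 11.9, 8.08 and 10.4 on the 2D arrays, against 160, 30.3 and 50.9 on the lr-ECM 3D arrays. After scaling, 2D replicate 2 lay above lr-ECM 3D replicates 2 and 3 for each of the 4 probes, so the groups overlapped. For A_54_P3273 its scaled log2 signal was 5.16, against 4.13 and 4.91. The probes differed in brightness, and A_54_P3271 was well above background on lr-ECM 3D replicate 1 only. For miR-30b-5p the second probe, A_54_P1018, was dim on every array (-2.76 to 13.5) and the reported values rest on A_54_P3669.

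**Figure D2:**
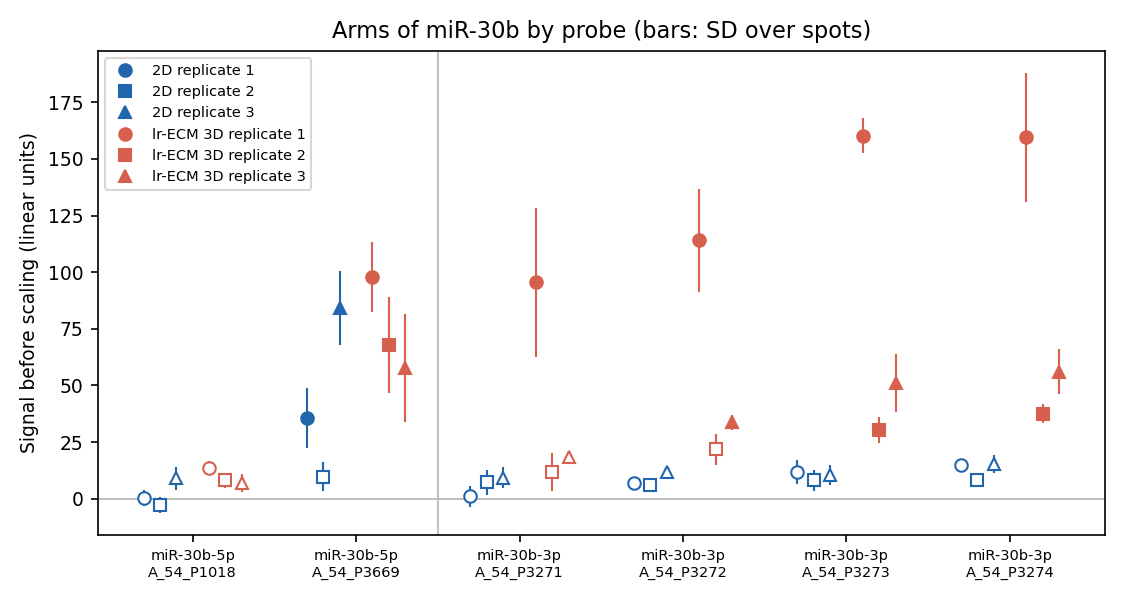
Signal before scaling (linear units, vertical axis) of both miR-30b-5p probes and the 4 miR-30b-3p probes (horizontal axis) on each array. Points are means over spots with bars of 1 SD over spots, filled where at least 50% of the spots were well above background. For every miR-30b-3p probe the lr-ECM 3D arrays lie above the 2D arrays before scaling, with lr-ECM 3D replicate 1 highest. After scaling the groups overlapped for each of these probes.

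2D replicate 3 (mean signal 40.4) was of like brightness to lr-ECM 3D replicates 2 and 3 (38.7 and 37.8), so raw signals were also set against that array alone, as values without a test. MiR-30b-5p was 1.16, 0.805 and 0.685 times its signal on 2D replicate 3 on the lr-ECM 3D arrays. MiR-30b-3p was not well above background on 2D replicate 3 and has only a bound there. On the scaled scale its lr-ECM 3D mean was at least 2.66-fold higher than on 2D replicate 3 and at least 1.20-fold higher than on 2D replicate 1, while against 2D replicate 2 the bound was under 1.

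Within an array, the log2 ratio of the arms does not depend on the array's scaling factor. The ratio of miR-30b-3p over miR-30b-5p was -1.26, -0.23 and -2.46 on the 2D arrays, against 0.70, -0.85 and -0.04 on the lr-ECM 3D arrays. The value of 2D replicate 2 lay above that of lr-ECM 3D replicate 2, so the groups overlapped. The mean ratio was higher by 1.26 in lr-ECM 3D, a difference that did not pass the exact two-sided permutation test (p = 0.2, adjusted over 2 pairs 0.4). MiR-30b-3p was well above background on no 2D array, and miR-30b-5p was not on 2D replicate 2, so every 2D ratio rests on a signal near background and its size is uncertain. Because probes differ in brightness, a ratio does not give which arm is more abundant, and only its change between groups is read.

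MiR-30e-5p, which differs from miR-30a-5p by 1 base, was measured at 26.2, 5.98 and 52.2 linear units before scaling on the 2D arrays, and at 57.2, 41.9 and 38.5 on the lr-ECM 3D arrays. On the scaled log2 scale the values were 4.77, 4.73 and 4.85 in 2D and 4.67, 4.59 and 4.50 in lr-ECM 3D. It was well above background on 2D replicate 3 and on every lr-ECM 3D array. After scaling all 2D arrays lay slightly above all lr-ECM 3D arrays, and the groups did not overlap for 43% of the tested miRNAs. The log2 change was -0.19 (SE 0.11, 95% interval -0.48 to 0.09) and did not pass the test (limma adjusted p = 0.318), with a sign that turned under other scalings (0.12 with the 75th percentile over probes detected on all arrays). The methods' t-test gave an unadjusted p below its threshold for this member (0.0339, by limma 0.145), with a fold under 2.

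Of the 10 members, 3 could be tested, as a test asked for detection on each of the 3 arrays in at least 1 group: miR-30b-5p, miR-30b-3p and miR-30e-5p. By limma 0 of these 3 were called at an adjusted p under 0.05 and a fold of at least 2, where 13.2% of the 121 tested miRNAs were called (12.4% higher and 0.826% lower in lr-ECM 3D), and 0 of 3 had an unadjusted p under 0.05. The methods' t-test also called 0 of the 3. On 2D replicate 2, 48 mouse miRNAs were detected, and the same 48 were detected on all 6 arrays. The other tested miRNAs, these 3 members included, therefore entered only through lr-ECM 3D and none through 2D alone. The shares called higher and lower carry that selection. The median log2 change of the 3 was -0.12, beside -0.11 over all tested miRNAs. Relative to that median miR-30b-5p stood at -0.01, miR-30e-5p at -0.08 and miR-30b-3p at 1.25.

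**Figure D3:**
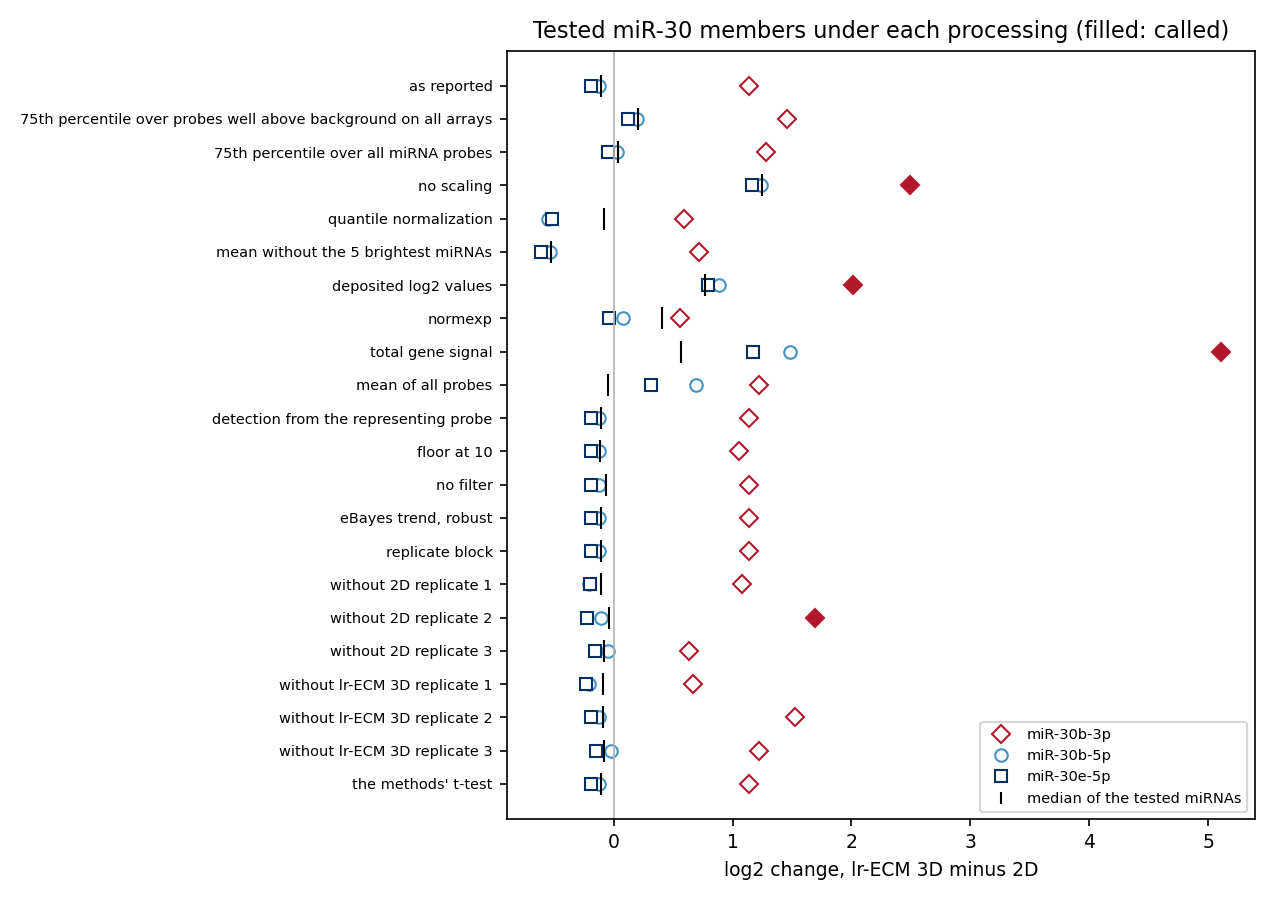
Log2 change between lr-ECM 3D and 2D (horizontal axis) of the tested members under each processing (vertical axis). Open symbols were not called, filled symbols were called by limma and black ticks are the median of the tested miRNAs; miR-30b-5p and miR-30e-5p lie near that median except with quantile normalization, normexp, the total gene signal and the mean of all probes, and miR-30b-3p is positive throughout, from 0.56 to 5.11.

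The remaining 5p arms did not meet the detection rule of the test and are given as values. MiR-30c-5p was measured at 13.8, 3.77 and 25.3 linear units before scaling on the 2D arrays, and at 37.9, 23.8 and 25.5 on the lr-ECM 3D arrays. It was well above background on 2D replicate 3 and on lr-ECM 3D replicates 1 and 3. Its scaled log2 means were 3.90 ± 0.14 (SD, n = 3) and 3.92 ± 0.15 (SD, n = 3), and the groups overlapped.

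MiR-30d-5p was measured at 16.5, 1.67 and 31.5 linear units before scaling on the 2D arrays, and at 29.1, 22.4 and 21.5 on the lr-ECM 3D arrays. It was well above background on 1 array of each group, 2D replicate 3 and lr-ECM 3D replicate 1. Its scaled log2 means were 3.70 ± 0.71 (SD, n = 3) and 3.68 ± 0.02 (SD, n = 3), and the wide spread in 2D came from 2D replicate 2, at 2.89.

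MiR-30a-5p was measured at 22.9, 5.25 and 39.2 linear units before scaling on the 2D arrays, and at 28.8, 25.0 and 20.7 on the lr-ECM 3D arrays. It was well above background on 2D replicate 3 and lr-ECM 3D replicate 1 only. On the scaled log2 scale the values were 4.57, 4.54 and 4.44 in 2D and 3.69, 3.85 and 3.61 in lr-ECM 3D. All 2D arrays lay above all lr-ECM 3D arrays, which held for 26.9% of the 566 mouse miRNAs in one direction or the other. These values are from the representing probe, A_54_P4363. The other probes, A_54_P2260 and A_54_P2261, were well above background on no array, and their groups overlapped. For A_54_P2261 the scaled log2 values were 3.56, 0 and 3.26 in 2D and 2.63, 2.38 and 1.76 in lr-ECM 3D.

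A fit with no filter on detection takes in signals that are not above background. There the log2 change of miR-30a-5p was -0.80 (limma adjusted p = 0.00708), and an adjusted p under 0.05 was reached by 6.18% of the 566 mouse miRNAs. It was not among the 5.65% of the 566 that were called in that fit, since its fold was under 2. The change turned to 0.55 without scaling and to 0.11 with the deposited values. It missed the threshold with the 75th percentile over detected probes (-0.48, limma adjusted p = 0.206) or over all probes (-0.65, limma adjusted p = 0.759). It also missed it with quantile normalization (limma adjusted p = 0.430) and without lr-ECM 3D replicate 1 (limma adjusted p = 0.0511). The probe was below the flag on 4 of the 6 arrays, and on 2D replicate 2 its raw signal of 5.25 was smaller than the SD over its spots, 8.65, so the p-value is not used as support. On lr-ECM 3D replicate 1, where it was detected, its raw signal was 0.735 times that on 2D replicate 3. These arrays were not of like brightness (mean signals of 49.9 and 40.4). On lr-ECM 3D replicates 2 and 3, nearer in brightness to 2D replicate 3, the ratios were 0.638 and 0.527. There the probe was not well above background. MiR-30e-5p was 1.09, 0.802 and 0.737 times its signal on 2D replicate 3 on the lr-ECM 3D arrays.

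The paralogs were then compared within arrays. The ratio of miR-30b-5p over miR-30e-5p was 0.45, 0.70 and 0.69 on the log2 scale on the 2D arrays, against 0.78, 0.70 and 0.58 on the lr-ECM 3D arrays. These values overlapped, and the mean changed by 0.07 (exact two-sided permutation p = 0.6, adjusted over 2 pairs 0.6). The miRNAs of this pair come from different chromosomes.

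Of the 10 pairs of 5p arms, 4 had ratios that did not overlap between the groups, where 51.7% of the 7260 pairs of tested miRNAs did not overlap. That share comes from an unlike set, since only miR-30b-5p over miR-30e-5p among the 5p pairs was made of tested members. The 4 pairs that did not overlap were those with miR-30a-5p. Its ratio to each of the other 5p arms was lower in lr-ECM 3D, by log2 changes of -0.82 to -0.61. The other 6 pairs overlapped, with changes of -0.14 to 0.21. The ratio of miR-30a-5p over miR-30e-5p, for example, was -0.20, -0.19 and -0.41 on the 2D arrays, against -0.99, -0.74 and -0.90 on the lr-ECM 3D arrays. The 4 pairs share miR-30a-5p and were described after their values were seen, with no test. MiR-30a-5p was below the detection flag on 4 of the 6 arrays, so these ratios rest in part on signals near background. They also use its probe A_54_P4363 alone, and the signals of its other probes overlapped between the groups.

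**Figure D4:**
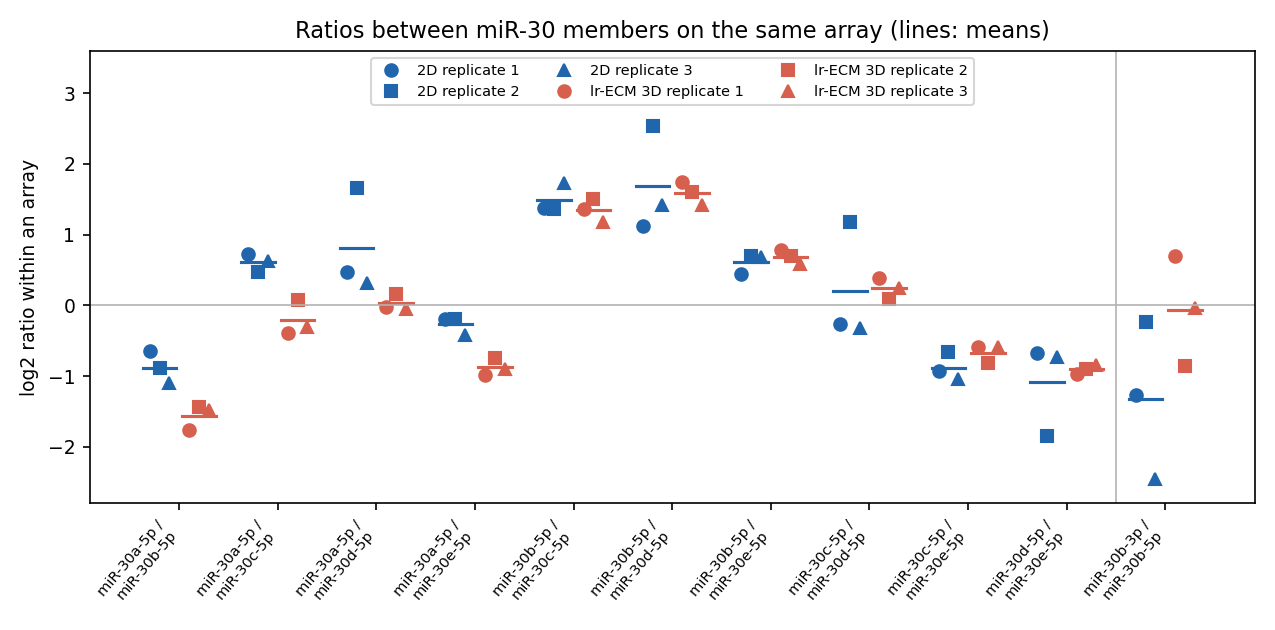
Log2 ratio of a pair of miR-30 members on the same array (vertical axis) for the 10 pairs of 5p arms and, right of the line, for the arms of miR-30b (horizontal axis). Points are arrays (blue 2D, red lr-ECM 3D, shape by replicate) and lines are group means; groups separate in the 4 pairs with miR-30a-5p, and the height of a pair reflects probe brightness and is not read.

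The miRNAs whose scaled log2 signals over the 6 arrays were most like the mean of miR-30b-5p and miR-30e-5p, among the 118 tested miRNAs outside the family, were miR-106a_v17.0, as the array names it (Pearson r = 0.829), miR-17_v17.0 (0.802) and miR-15a-5p (0.622). These correlations describe 6 arrays that share their scaling. For miR-30b-3p, chosen after its values were seen, they were miR-197_v14.0 (0.871), miR-468-3p (0.853) and miR-466h-5p (0.851). Like miR-30b-3p, these lay below the lowest signal well above background on every 2D array. Each was highest in 2D on 2D replicate 2 (miR-197_v14.0 at 0, 4.61 and 0), so the correlations rest in part on undetected signals.

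As other miRNAs known to restrain the epithelial-mesenchymal transition, the miR-200 family with miR-141, miR-205, miR-203 and the miR-34 family were listed. Of the 10 on the list, 8 were well above background on no array. The 2 that could be tested, miR-34b-5p and miR-34c-5p, were not called (log2 changes of -0.28 and -0.50, limma adjusted p of 0.425 and 0.402). Their median of -0.39 stood beside -0.11 over all tested miRNAs.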

How the data were processed

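MiRNA levels were measured in LLC1 cells in 2D and lr-ECM 3D culture, with 3 replicates per group, 1 array each and 1 colour per array. Sample labels gave the groups. Spot intensities in the deposited scanner files are background-subtracted, were extracted by the authors in Agilent's Feature Extraction (version 10.7.3.1) and were not normalized between arrays; per the file headers these files also flag outliers and detection. A deposited table of all arrays has the authors' log2 values, equal to the log2 intensity (minimum 1) shifted by 1 constant per array (largest departure 0.0487), with column means of 1.79 and medians of -0.0385 to 0.816. This scale and centring were found from the values.

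Control and outlier spots were left out (3 to 10 of the 200 spots of members per array) and the spots of a probe averaged (1712 probes, 25 of them for members, 2 to 4 each). Each array was scaled so that its mean over miRNA probes equalled that of the 2D arrays, floored at 1 and converted to log2. A probe was well above background where at least 50% of its spots carried the flag, and a miRNA where any of its probes was. The probe with the highest mean log2 signal represented a miRNA. MiRNAs detected on every array of at least 1 group went into a limma fit (version 3.58.1, R 4.3.3; two-sided, Benjamini-Hochberg over 121). Calls were made at an adjusted p under 0.05 with at least a 2-fold change. A bound sets the brighter group's mean against the mean, over the dimmer group's arrays, of whichever is higher, the probe's own signal or the array's lowest detected one. On simulated data for this comparison, 86.7% of 30 miRNAs given a log2 shift of 2 among 121 were recovered at the real spread with 1 false call, and 100% at an SD of 0.25 with 0. The simulation drew normal noise around scaled log2 values, with no detection filter, floor or difference in array brightness. It therefore does not give how often a smaller change, or one in a dim member, would be called.

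All members were named, with miRNAs of the same seed, the 3 most alike in pattern and the listed transition and marker miRNAs. Under the listed names, 0 of 2 endothelial markers and 4 of 6 blood cell markers were found on the arrays. The missing blood cell markers are there as miR-142a-3p and miR-142a-5p. The endothelial markers, miR-126-3p and miR-126-5p, were not looked up under other names. The paper lists miR-126-5p as lowered, so a name not found does not mean an absent miRNA. Members, lists and tests were chosen with earlier results of these data known. The labels number replicates, but same-numbered arrays did not deviate together (r of -0.322, -0.362 and 0.159). Alternatives covered scaling, background correction (normexp on the median signal), probe summary, floor, filter, fit and each array left out. Precision is limited by the number of arrays.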

Additional observations from a re-analysis of the deposited data

How the results depend on the processing

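The number of miRNAs called was 16 as reported. It was 25 with the 75th percentile over all probes, 27 without scaling, with the deposited values and with the total gene signal, 32 with no filter, and 0 by limma with a filter on all 6 arrays (7 at an unadjusted p under 0.05), where 48 miRNAs and no member were left to test. Leaving out arrays gave 13 to 32, the highest without 2D replicate 2. Quantile normalization called 24, of which 79.2% were higher, against 93.8% as reported. Under the filter no miRNA entered through 2D alone, and both shares carry that selection. The members called were 0 as reported and 1, miR-30b-3p, without scaling, with the deposited values and with the total gene signal. Leaving out arrays gave 0 to 1, with 1 only without 2D replicate 2. The cause was not tested.

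The log2 change of miR-30b-5p turned from -0.12 to 0.20 with the 75th percentile over detected probes, 0.0275 over all probes, 1.24 without scaling, 0.89 with the deposited values, 0.0807 with normexp, 1.48 with the total gene signal and 0.69 with the mean of all probes. That of miR-30e-5p turned from -0.19 to 0.12, 1.16, 0.79, 1.18 and 0.31 with the 75th percentile over detected probes, no scaling, the deposited values, the total gene signal and the mean of all probes. The median of all tested miRNAs in these settings was 0.21, 1.24, 0.77, 0.57 and -0.05, and miR-30b-5p stood 0.91 above it with the total gene signal and 0.74 with the mean of all probes. For miR-30b-5p the mean of all probes takes in A_54_P1018. That probe was well above background on no array and at the floor on 2D replicates 1 and 2. MiR-30b-3p stayed above 0 in all 22 alternatives (0.56 to 5.11), 4 of which called it. Alternatives that changed only the filter, the detection rule or the test left its log2 change at 1.14, so their sign was fixed in advance. This count is not used as support. The log2 change of miR-30a-5p with no filter turned to 0.55 without scaling and 0.11 with the deposited values, in settings chosen after seeing the data. The ratio change of miR-30b-5p over miR-30e-5p turned from 0.07 to -0.0348 with quantile normalization. Leaving out arrays gave -0.0084 to 0.12 (-0.0084 without 2D replicate 1). That of miR-30b-3p over miR-30b-5p stayed above 0, from 0.48 to 3.62, and the difference in detected members lay between 1.33 and 3.83.

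With the replicate number as a block, 13 miRNAs and 0 members were called. The numbers are shared names only, so this is given as an alternative. Signal over background limits the dim members: on 2D replicate 2 the lowest scaled log2 signal well above background was 7.02, above every member on every array.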
